A study of Mus musculus with 3 samples.

Results

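The 35 genes described here encode the machinery that brings proteins into the endoplasmic reticulum (ER), folds and glycosylates them there, and removes those that fail to fold. They were chosen by name, and each was read from its brightest named probe set. Of the 35, 33 had a named probe set, out of 19505 genes named on the array. Pdia4, a disulfide isomerase, and Manf, a secreted ER stress factor, have no named probe set in the annotation used here and were not measured. CD8 T cells of the mouse were activated by CD3 and CD28 stimulation in Tc1 cytokines, which drive them toward cytotoxic effector cells. The 3 samples were the control, without cholesterol in its label, and cells given cholesterol at 0.5 µg/ml or at 0.75 µg/ml. Total RNA of each was read on 1 whole-transcript array. With 1 array per group there is no replicate error and no test, and every difference below compares 2 arrays. The labels used here give no strain, age or number of animals, no carrier for the cholesterol and no exposure time.

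Proteins bound for the cell surface or for secretion enter the ER through the Sec61 channel. Inside, chaperones of the Hsp70 and Hsp90 families, disulfide isomerases and the lectins calnexin and calreticulin fold them, and misfolded chains are passed back to the cytosol for degradation (ER-associated degradation, ERAD). When unfolded proteins build up, the unfolded protein response raises the genes of this machinery through the transcription factors ATF6 and XBP1. In activated T cells the ER makes cytokines, granzymes and surface receptors.

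Across the 33 measured genes the ER chaperones were higher at 0.75 µg/ml cholesterol than in the control, while the ERAD genes lay on both sides of it. At 0.75 µg/ml 25 of the 33 were above the control, against 50.2% of the 10940 genes that passed the level filter, a mean log2 intensity of at least 5.02. The median log2 difference was 0.15 over the 33 genes and 0.00 over all genes past the filter. The 95% interval of the median from the ranks of the 33 genes was 0.09 to 0.26. It treats the genes as independent, although all were read from the same 2 arrays. It is not the range of the genes, -0.30 to 0.70, and does not cover the spread between cultures. Of the 33, 9 were at least 25% higher than the control, against 10.8% of all genes past the filter, and 0 were at least 20% lower, against 13.1%. At least 1.5-fold higher were 2 of them, against 2.53%. None of the 33 was 2-fold higher or lower, against 0.356% and 1.57%. With dim values raised to the negative controls' level described next, 8 rather than 9 were at least 25% higher, since the control value of Dnajb9 is dim. The share of all genes past the filter was then 5.94%. All 33 passed the filter, and 31 were above the 95th percentile of the negative controls, an intensity of 102, on every array. Differences are on the log2 intensity scale throughout, where 25% higher is 0.32.

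**Figure D1:**
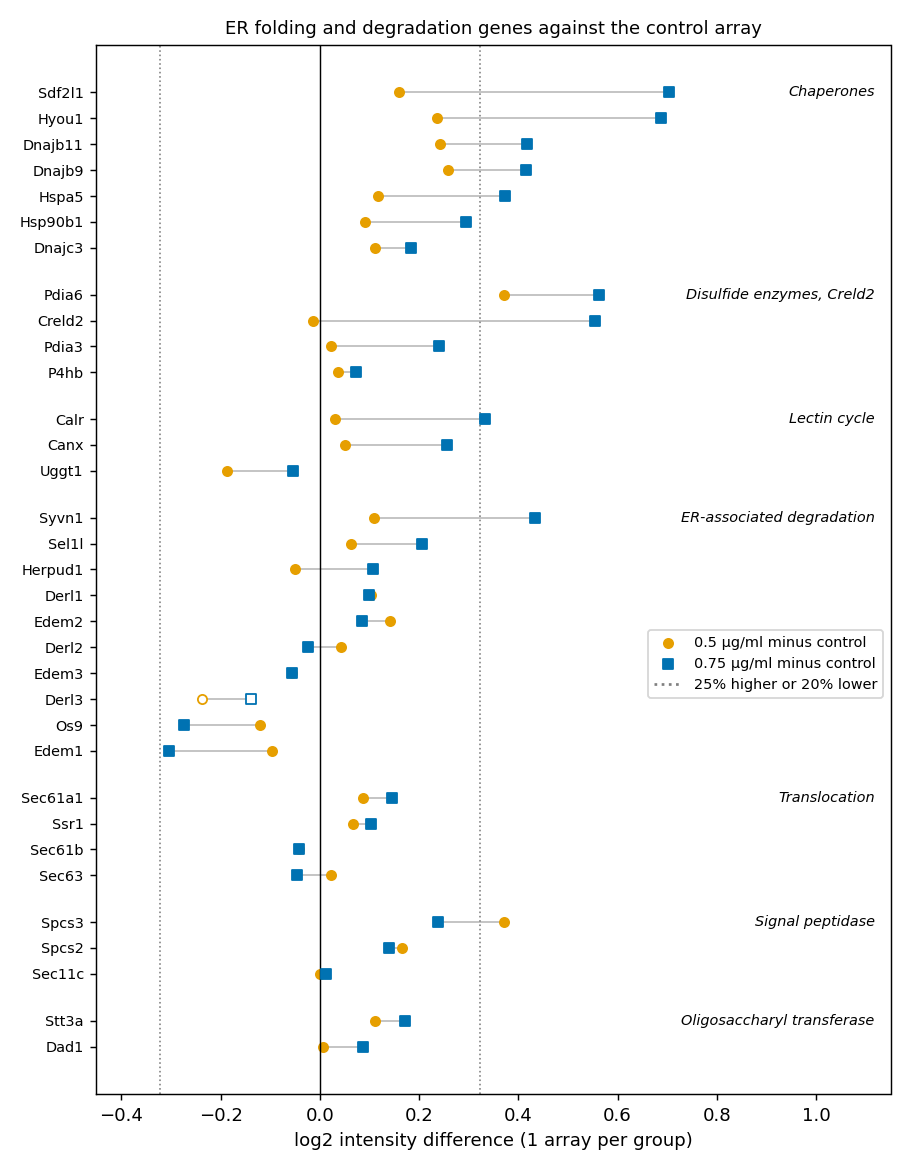
Log2 intensity difference from the control array (x axis) of each of the 33 measured genes (y axis), grouped by role, at 0.5 µg/ml (circles) and 0.75 µg/ml (squares). Chaperones lie to the right at both doses, from 0.18 to 0.70 at 0.75 µg/ml, and ERAD genes lie on both sides of 0. Hollow symbols mark Derl3, whose direction is not read because it was under the negative controls' level on every array. Circles and squares coincide for Edem3 and Sec61b.

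The identity of the samples and the treatment were checked on the same arrays. Against the control, the cholesterol exporter gene Abcg1 was 3.20-fold higher at 0.75 µg/ml and 2.08-fold higher at 0.5 µg/ml, and Hmgcs1, an enzyme gene of sterol synthesis, differed by -2.70 and -0.51. All 8 markers of CD8 T cells were above the negative controls on every array. Of the 8, 3 were at least 20% lower at 0.75 µg/ml than in the control, Cd8a, Cd8b1 and Cd3d. Of all genes past the filter 13.1% were. Plasma cells are rich in ER. Of the 8 measured B cell and plasma cell markers 7 stayed under the negative controls' 95th percentile on every array, among them Jchain, Mzb1, Tnfrsf17 and Sdc1. Sdc1 had 45.7 in the control, 38.5 with 0.5 µg/ml and 62.7 with 0.75 µg/ml, too dim for a direction to be read. The exception was Cd79b, above that level on 2 arrays, with 111, 100 and 105 in the control and at the rising doses. The summed intensity of the 8 markers was 258 in the control, 231 with 0.5 µg/ml and 257 with 0.75 µg/ml. The 6 measured myeloid markers and the 2 measured CD4 T cell markers were under that level on every array. The summed CD8 marker intensity was 24638 in the control, 24989 with 0.5 µg/ml and 23403 with 0.75 µg/ml. In bulk RNA, fewer cells of a type and less RNA per cell cannot be told apart.

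The promoters of many of these genes carry the ER stress response element (ERSE), the letters CCAAT and CCACG with any 9 bases between them, which NF-Y binds at its CCAAT end and ATF6 or XBP1 at its CCACG end. A related element, ERSE-II, has ATTGG and CCACG with any 1 base between them, and a further element bound by ATF6 or XBP1, the UPRE, has TGACGTGG. The elements share letters, since ATTGG is CCAAT on the opposite strand and the UPRE holds CGTGG, the opposite strand of CCACG. They were searched on both strands of RefSeq promoter windows of build GRCm38.p6 that run from 250 bases before each gene's start to 50 after it. Windows were at hand for 29 of the 35 genes. ERSE was in 9 of the 29, against 0.119% of all 32851 windows, ERSE-II in 2 against 0.0365%, and UPRE in 0 against 0.676%. A listed gene counted if any of its windows held the element, while the shares are of windows. Since such genes were already known to carry these elements, the counts are a description and not a test. The matches are shown because the genes that hold them can be followed through the results below, each with 10 bases on either side and with the fixed letters of the element in capitals. A match describes the letters and does not show binding.
Hspa5, chr2:34772015-34772053, + strand: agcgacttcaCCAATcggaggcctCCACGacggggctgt
Hsp90b1, chr10:86705628-86705666, - strand: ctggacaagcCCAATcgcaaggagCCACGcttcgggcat
Hsp90b1, chr10:86705523-86705561, + strand: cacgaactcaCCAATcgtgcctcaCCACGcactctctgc
Dnajc3, chr14:118937817-118937855, + strand: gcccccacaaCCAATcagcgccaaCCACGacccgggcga
Pdia6, chr12:17266481-17266519, + strand: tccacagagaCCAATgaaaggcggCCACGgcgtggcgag
Creld2, chr15:88819510-88819548, - strand: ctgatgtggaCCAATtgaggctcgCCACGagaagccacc
Calr, chr8:84847065-84847103, + strand: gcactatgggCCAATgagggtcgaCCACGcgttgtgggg
Canx, chr11:50325790-50325828, - strand: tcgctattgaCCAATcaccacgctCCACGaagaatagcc
Syvn1, chr19:6046522-6046560, + strand: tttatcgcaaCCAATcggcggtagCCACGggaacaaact
Derl3, chr10:75893232-75893270, - strand: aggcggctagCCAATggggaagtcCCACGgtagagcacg
The ERSE-II matches lay in the windows of the Hsp40 gene Dnajb11 and the ERAD gene Herpud1.
Dnajb11, chr16:22857842-22857872, + strand: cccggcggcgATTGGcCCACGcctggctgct
Herpud1, chr8:94386367-94386397, + strand: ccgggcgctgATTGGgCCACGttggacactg
All matches but that of Dnajb11 lay before the gene's start. The Hspa5 match began 65 bases before the start and the Syvn1 match 44, and that of Dnajb11 lay 7 to 17 bases after it. Hsp90b1 held 2 matches, on opposite strands.

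The 11 genes with either element were all measured. Derl3 was too dim for a direction to be read, and the other 10 were all above the control at 0.75 µg/ml, against 50.2% of all genes past the filter. The median difference was 0.33 over the 11 genes (95% interval over the genes 0.11 to 0.55) and 0.35 over the 10. Of the 17 measured genes whose window held neither element, 10 were above the control, with a median of 0.09 (-0.05 to 0.17). The 5 measured genes without a window could not be classed. All 5 were above the control, with a median of 0.15, and Hyou1 at 0.69 is among them. At least 25% higher were 6 of the 10 genes and, with Dnajb9 at its lower bound, 1 of the 17. Of all genes past the filter 10.8% were, or 5.94% with their dim values raised in the same way, close to the share of the 17. At 0.5 µg/ml 8 of the 10 genes and 12 of the 17 were above the control, against 52.9% of all genes past the filter. The medians there were 0.09 for the 11 genes (-0.05 to 0.24) and 0.04 for the 17. Between the doses all 10 genes were higher at 0.75 µg/ml than at 0.5 µg/ml, as were 9 of the 17, against 46.2%. This split was made after the values were known, genes are not replicates, and the difference between these classes was not tested.

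**Figure D2:**
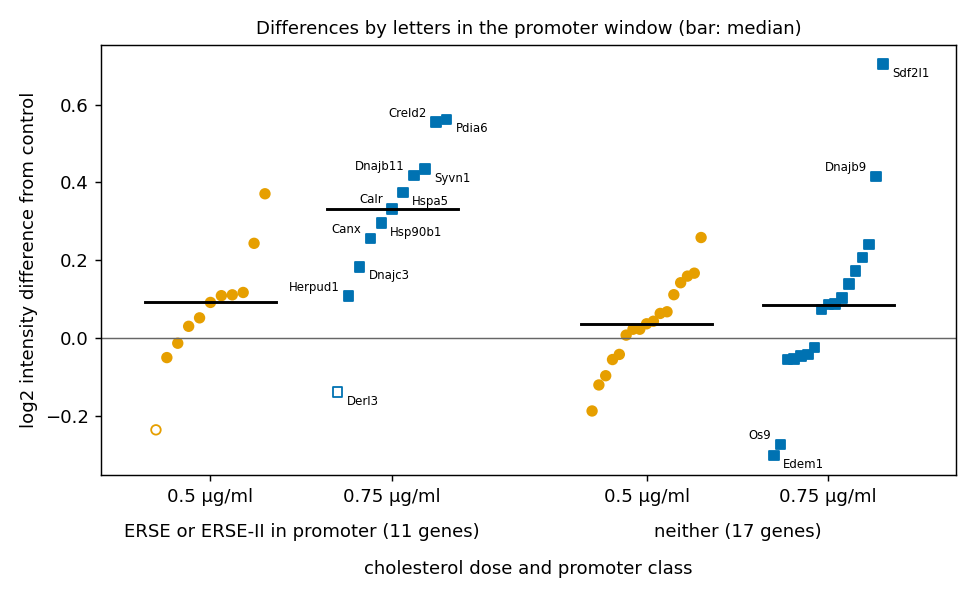
Log2 intensity difference from the control (y axis) of the measured genes, by whether the promoter window held ERSE or ERSE-II (11 genes) or neither (17 genes), at 0.5 µg/ml (circles) and 0.75 µg/ml (squares), with the median as a bar. At 0.75 µg/ml the 10 filled symbols of the first class all lie above 0. The 5 measured genes without a window are not shown. The hollow symbols are Derl3, under the negative controls' level on every array, and among the 17 Sdf2l1 lies highest.

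The presence of an element did not track every gene. Below are 3 full windows: that of Hspa5, which holds an ERSE, that of Sdf2l1, the gene with the highest difference, and that of Edem1, the gene with the lowest. Neither of the last 2 holds an exact element. Neither holds a match to ERSE with up to 1 of its 10 fixed letters changed, which 1.5% of all windows hold. That looser match, which includes the exact ones, was in 14 of the 29 listed genes with a window. Among them were the measured genes Pdia3, Sel1l and Derl2, classed above as holding neither element. These differed from the control by 0.24, 0.21 and -0.02 at 0.75 µg/ml. Capitals mark every CCAAT and CCACG on either strand.
Hspa5, chr2:34771840-34772139, + strand: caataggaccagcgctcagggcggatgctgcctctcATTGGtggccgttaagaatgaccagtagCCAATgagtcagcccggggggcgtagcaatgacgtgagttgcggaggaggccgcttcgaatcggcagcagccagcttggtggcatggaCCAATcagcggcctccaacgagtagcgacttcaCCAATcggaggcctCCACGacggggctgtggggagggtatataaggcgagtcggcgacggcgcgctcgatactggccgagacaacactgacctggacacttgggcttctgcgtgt
Sdf2l1, chr16:17132334-17132633, - strand: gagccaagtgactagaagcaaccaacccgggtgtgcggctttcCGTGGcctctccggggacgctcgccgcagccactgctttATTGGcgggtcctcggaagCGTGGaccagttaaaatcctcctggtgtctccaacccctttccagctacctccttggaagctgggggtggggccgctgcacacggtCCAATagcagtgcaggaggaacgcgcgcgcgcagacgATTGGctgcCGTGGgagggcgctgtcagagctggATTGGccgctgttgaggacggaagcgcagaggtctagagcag
Edem1, chr6:108828391-108828690, + strand: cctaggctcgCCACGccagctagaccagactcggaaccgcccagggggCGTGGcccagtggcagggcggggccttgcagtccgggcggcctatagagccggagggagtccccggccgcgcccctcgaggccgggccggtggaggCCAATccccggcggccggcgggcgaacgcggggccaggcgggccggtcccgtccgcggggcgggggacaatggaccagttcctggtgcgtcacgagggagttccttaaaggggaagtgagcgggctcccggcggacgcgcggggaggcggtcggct
The window of Sdf2l1 holds 4 copies of CCAAT and 3 of CCACG, that of Hspa5 holds 4 and 1, and that of Edem1 holds 1 and 2. The short string CCACG alone is in 32.8% of all windows.

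Of the chaperones, all 7 measured were higher at 0.75 µg/ml than in the control, against 50.2% of all genes past the filter. Their median difference was 0.41, or 0.37 with Dnajb9 at its lower bound. Sdf2l1, whose product is part of an ER chaperone complex with BiP and its J proteins, had an intensity of 539.9 in the control, 603 with 0.5 µg/ml and 879 with 0.75 µg/ml. It was 1.63-fold higher at 0.75 µg/ml than in the control and ranked 164 of the 10940 genes from the highest difference down. Hyou1 encodes an Hsp110-type chaperone that also acts as a nucleotide exchange factor for BiP. Its intensity was 863 in the control, 1016 with 0.5 µg/ml and 1389.6 with 0.75 µg/ml. It was 1.61-fold higher at 0.75 µg/ml and ranked 178. These 2 genes were the only ones of the 33 past 1.5-fold.

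Hspa5 encodes BiP, the Hsp70 chaperone of the ER that also holds the stress sensors inactive. It had 3633 in the control, 3939 with 0.5 µg/ml and 4709 with 0.75 µg/ml, and was 1.30-fold higher at 0.75 µg/ml. Hsp90b1, the gene of the Hsp90-type chaperone GRP94, had 2406, 2563 and 2952 in the control and at the rising doses and was 1.23-fold higher at 0.75 µg/ml. Both hold ERSE in the windows shown above.

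The J proteins stimulate BiP and present clients to it. Dnajb11, which holds ERSE-II, had 183 in the control, 216 with 0.5 µg/ml and 244 with 0.75 µg/ml, a difference of 0.42 at 0.75 µg/ml. Dnajb9, encoding ERdj4, had 88.4 in the control, 106 with 0.5 µg/ml and 118 with 0.75 µg/ml. Its control value was under the negative controls' 95th percentile, so the gene was at least 1.16-fold higher at 0.75 µg/ml. Dnajc3, whose product P58IPK is a BiP cochaperone, differed by 0.18, the smallest of the 7 chaperones, with 440.2, 475 and 499.7 in the control and at the rising doses. On all 7 chaperone probe sets the 3 arrays stood in the order control, 0.5 µg/ml, 0.75 µg/ml, against 21.3% of all genes past the filter.

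**Figure D3:**
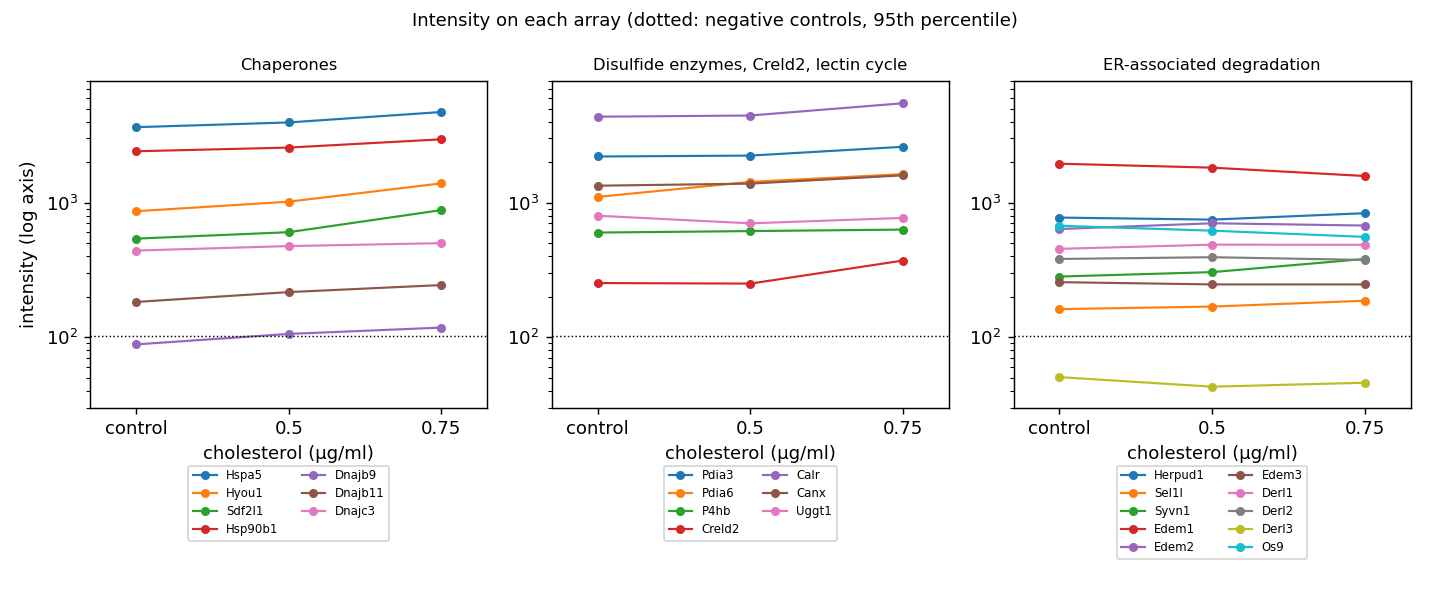
Intensity on a log axis (y) of each gene on the control, 0.5 µg/ml and 0.75 µg/ml arrays (x), for chaperones, for disulfide enzymes with Creld2 and the lectin cycle, and for ERAD genes. Each point is 1 array. All 7 chaperone lines climb from left to right, and Edem1 and Os9 go down. Heights of different genes are of different probe sets and are not comparable.

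Among the 4 measured genes of disulfide formation and related factors, Pdia6 and Creld2 had the highest differences from the control at 0.75 µg/ml. Pdia6, a disulfide isomerase of the BiP complex, had 1103 in the control, 1425 with 0.5 µg/ml and 1628 with 0.75 µg/ml. Its fold over the control was 1.29 at 0.5 µg/ml and 1.48 at 0.75 µg/ml, so most of its difference was present at the lower dose. Creld2, an ER-resident protein induced by ER stress, had 253 in the control, 250.2 with 0.5 µg/ml and 371 with 0.75 µg/ml. It was 1.47-fold higher at 0.75 µg/ml than in the control and level with the control at 0.5 µg/ml. The promoter windows of both hold ERSE. Pdia3, the isomerase that works with calnexin and calreticulin, had 2200.4, 2235 and 2598 in the control and at the rising doses, a difference of 0.24 at 0.75 µg/ml. P4hb, the classical protein disulfide isomerase, differed by 0.07.

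In the lectin cycle, which holds N-glycosylated proteins until they are folded, Calr (calreticulin) and Canx (calnexin) were higher and Uggt1 was not. Calr had 4346 in the control, 4436 with 0.5 µg/ml and 5470.4 with 0.75 µg/ml, and was 1.26-fold higher at 0.75 µg/ml. Canx had 1335, 1384 and 1594 in the same order, a difference of 0.26. Uggt1, the glucosyltransferase that returns unfolded glycoproteins to the lectins, had 799 in the control, 701 with 0.5 µg/ml and 769.5 with 0.75 µg/ml. For Calr, as for Creld2 and Pdia3, the values of the control and 0.5 µg/ml lay close together and the 0.75 µg/ml array stood above both.

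Of the 10 ERAD genes, Derl3 was too dim for a direction to be read, and of the other 9, 5 were above the control and 4 below at 0.75 µg/ml, near the 50.2% above of all genes past the filter. Their median was 0.09, or 0.03 with Derl3 at its measured value. Syvn1 encodes HRD1, the ubiquitin ligase at the centre of ERAD, and had 282 in the control, 304 with 0.5 µg/ml and 381 with 0.75 µg/ml. It was 1.35-fold higher at 0.75 µg/ml and the only ERAD gene at least 25% higher, a share close to the 10.8% of all genes past the filter. Sel1l, the partner that stabilises HRD1, had 162, 169 and 187 in the control and at the rising doses, a difference of 0.21. Herpud1, which helps assemble the HRD1 complex, differed by 0.11 at the higher dose and by -0.05 at the lower.

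Other ERAD genes choose glycoproteins for degradation. At 0.75 µg/ml none of them was 25% higher or 20% lower, against 10.8% and 13.1% of all genes past the filter. Edem1, a mannosidase-like factor that directs misfolded glycoproteins to ERAD, had 1945 in the control, 1818 with 0.5 µg/ml and 1576 with 0.75 µg/ml, a fold of 0.81 at 0.75 µg/ml over the control. Os9, a lectin that recognises trimmed glycans and passes substrates to SEL1L, had 673, 619 and 556 in the same order, a fold of 0.83. These 2 were the only genes of the 33 for which the 3 arrays stepped down in dose order, against 19.8% of all genes past the filter. The relatives Edem2 and Edem3 differed by 0.09 and -0.06 at 0.75 µg/ml. The derlins, membrane proteins of the exit channel, gave 0.10 for Derl1 and -0.02 for Derl2. Derl3 was under the negative controls' 95th percentile on every array, with 50.5 in the control, 42.9 with 0.5 µg/ml and 45.9 with 0.75 µg/ml, so no fold is given.

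For the entry and modification steps, the median differences at 0.75 µg/ml were 0.03 for translocation, 0.14 for signal peptidase and 0.13 for oligosaccharyl transferase. In translocation, Sec61a1, the channel subunit, differed by 0.15 at 0.75 µg/ml, the TRAP subunit gene Ssr1 by 0.10, the channel subunit gene Sec61b by -0.04 and Sec63, which recruits BiP to the channel, by -0.05. The signal peptidase gene Spcs3 was highest at the lower dose, with 439 in the control, 569 with 0.5 µg/ml and 518 with 0.75 µg/ml, and was 1.29-fold higher at 0.5 µg/ml. Spcs2, another subunit, had 1533, 1720.0 and 1687 in the same order, and the catalytic subunit gene Sec11c stayed between 493 and 497. Of the oligosaccharyl transferase genes, which attach N-glycans, Stt3a, the catalytic subunit, differed by 0.17 at 0.75 µg/ml and Dad1 by 0.09. None of these 9 genes was 25% higher or 20% lower at 0.75 µg/ml, against 10.8% and 13.1% of all genes past the filter. Sec61b and Edem3 had the same deposited value on the 0.5 and 0.75 µg/ml arrays, as did 3.93% of all transcript probe sets.

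At 0.5 µg/ml the genes differed from the control by less. Of the 33, 25 were above the control, against 52.9% of all genes past the filter, with a median of 0.06 (95% interval over the genes 0.02 to 0.11) beside 0.01 over all genes. Pdia6 and Spcs3 were the 2 that were at least 25% higher, against 5.91% of all genes past the filter, a share close to that of the list. None was 1.5-fold or 2-fold higher, against 0.941% and 0.0914%. All 7 chaperones were above the control, with a median of 0.16, or 0.12 with Dnajb9 at its lower bound. At least 20% lower were 0 of the 33, against 5.18%.

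At 0.75 µg/ml set against 0.5 µg/ml, 23 of the 33 were higher (22 of 32 without Derl3), 8 lower and 2 identical, against 46.2% higher among all genes past the filter. The median was 0.08 (95% interval over the genes 0.01 to 0.17) beside -0.01 over all genes. Creld2, Sdf2l1, Hyou1 and Syvn1 were at least 25% higher, against 7.59% of all genes past the filter. None was 1.5-fold or 2-fold higher, against 1.8% and 0.402%, and 0 were at least 20% lower, against 11.3%. Creld2 had 371 at 0.75 µg/ml and 250.2 at 0.5 µg/ml, a fold of 1.48, and Sdf2l1 had 879 and 603, a fold of 1.46. The medians by role were 0.20 for chaperones, 0.20 for disulfide enzymes with Creld2, 0.20 for the lectin cycle and 0.00 for ERAD. The 3 comparisons reuse the same 3 arrays, so they are not independent of each other. The arrays stood in the order control, 0.5 µg/ml, 0.75 µg/ml for 19 of the 33 genes, against 21.3% of all genes past the filter.

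**Figure D4:**
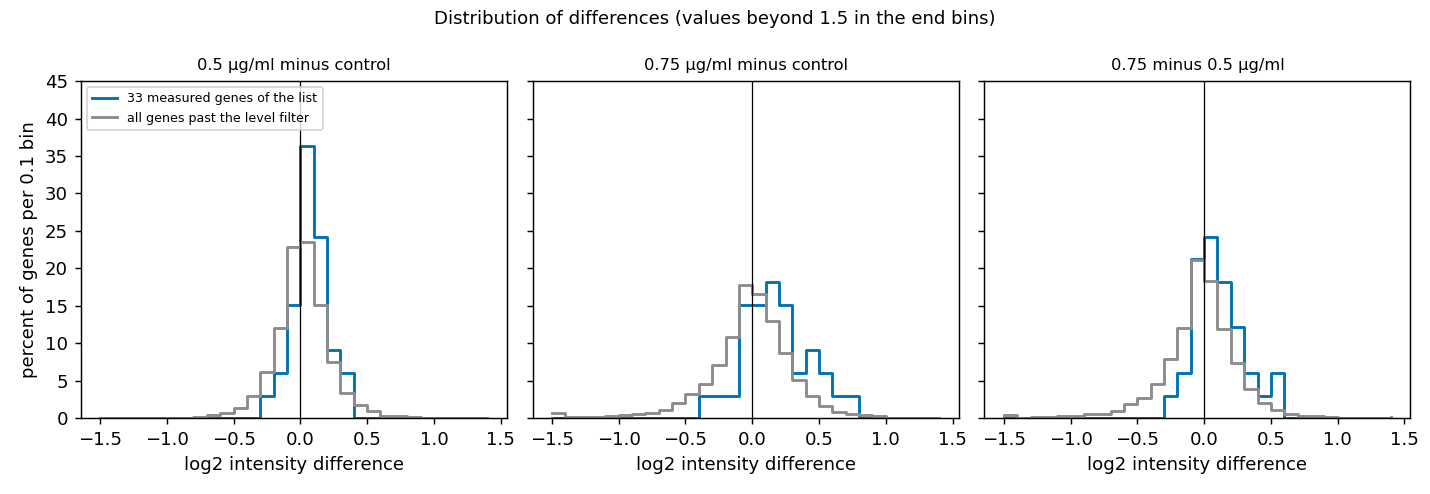
Percent of genes (y axis) in bins of 0.1 of the log2 intensity difference (x axis), for the 33 measured ER genes and for all 10940 genes past the level filter, in each of the 3 comparisons. At 0.75 µg/ml minus control the ER genes have a tail between 0.4 and 0.8 and none lies below -0.4, while the distribution of all genes reaches further on the low side.

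The size of these differences can be set beside the spread of other probe sets between the same arrays. Genes with a mean intensity above the negative controls' 95th percentile had an SD of 0.33 between 0.75 µg/ml and the control and 0.17 between 0.5 µg/ml and the control. The 993 positive-control probe sets above that level had an SD of 0.27 at 0.75 µg/ml, and 12.0% of them were at least 25% higher than in the control. A difference of this size in 1 gene is therefore within what many other probe sets show, and the spread between cultures is unknown.

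Other genes of the same pathways were taken from lists of further ER factors. Of 83 measured further ER genes, 54 were above the control at 0.75 µg/ml and 26 below, with a median of 0.09 (95% interval over the genes 0.03 to 0.14), against 50.2% above among all genes past the filter. At least 25% higher were 6, a lower share than the 10.8% of all genes past the filter, and 1 was at least 20% lower, against 13.1%. Of the 83, 77 passed that filter and 73 were above the negative controls' level on every array. On every array 8 were under that level, and they are counted although no direction can be read for them. Txndc11 and Uggt2, both counted among the 6, are of these 8. Further glycosylation genes had a median of 0.16, with 8 of 10 above the control. They included Magt1 and Rpn1, subunits of oligosaccharyl transferase complexes, at 0.42 and 0.40, and Krtcap2, another subunit, at -0.11. Further lectin cycle genes had a median of 0.18 with 7 of 8 above, counting the dim Uggt2. Among them were Mogs, the glucosidase that starts glycan trimming, at 0.28 and the cargo lectin gene Lman2 at 0.21.

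Further translocation genes had a median of 0.10 with 14 of 19 above. Get3 and Get4, of the pathway that inserts tail-anchored proteins, differed by 0.41 and 0.29, while the TRAP subunit gene Ssr4 and the channel gene Sec61a2 differed by -0.18 and -0.14. Further ERAD genes had a median of 0.05, with 11 of 19 above. Vcp, the ATPase that pulls substrates out of the membrane, differed by 0.42 and its recruiter Ubxn4 by 0.25, while Herpud2 and the ubiquitin ligase gene Rnf139 differed by -0.21 and -0.18.

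Further chaperones had a median of 0.05, with 8 of 14 above and 3 of the 14 under the negative controls' level on every array. Dnajc7, a mainly cytosolic cochaperone, and Fkbp2, a prolyl isomerase, differed by 0.21 and 0.20, and the ER reductase gene Dnajc10 and Cnpy2 by -0.19 and -0.15. Further disulfide enzymes had a median of -0.01, with 6 of 13 above and 3 of the 13 under that level on every array. Prdx4, an ER peroxidase, and Tmx1, a membrane-bound isomerase, differed by 0.25 and 0.20. Ero1a, the oxidase that recharges the disulfide isomerases and is also hypoxia-inducible, had 1223 in the control, 1471 with 0.5 µg/ml and 858 with 0.75 µg/ml, a difference of -0.51 at 0.75 µg/ml. Txndc12 differed by -0.27.

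The regulators of the unfolded protein response had a list median of -0.03. Above the control at 0.75 µg/ml were 5 of 12, against 50.2% of all genes past the filter. Xbp1 had 2125 in the control, 2443 with 0.5 µg/ml and 2644 with 0.75 µg/ml, a difference of 0.32 that stayed just under 25%. These probe sets give the total transcript of Xbp1 and not its splicing, and activation of ATF6 by cleavage leaves no mark on its own level. Atf6 differed by -0.02, Atf4, the effector of the PERK branch, by 0.13 and Ddit3, which encodes CHOP, by -0.22. Eif2ak3, the gene of the sensor kinase PERK, had 1024 in the control, 931 with 0.5 µg/ml and 773 with 0.75 µg/ml, a difference of -0.41. Nfyc, a subunit of NF-Y, differed by 0.15.

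Chaperones outside the ER had a median of 0.15, beside 0.15 for the 33 ER genes. Above the control at 0.75 µg/ml were 11 of 13, against 50.2% of all genes past the filter. The 11 include Hspa1b, which was under the negative controls' level on every array. The list median is the value of Hspa1b itself, so it rests on a gene too dim for a direction to be read. Hsph1, the Hsp110 chaperone of the cytosol, had 486 in the control, 501 with 0.5 µg/ml and 844 with 0.75 µg/ml, a difference of 0.80, which is larger than that of any of the 33 ER genes. Hspa1a, the inducible Hsp70, differed by 0.31 and shares near-identical sequence with Hspa1b. Dnajb1, its J protein, differed by -0.07, and Cct2, of the cytosolic chaperonin, had 3722 with 0.75 µg/ml and 3735 in the control. A difference between these lists and the 33 genes was not tested.

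**Figure D5:**
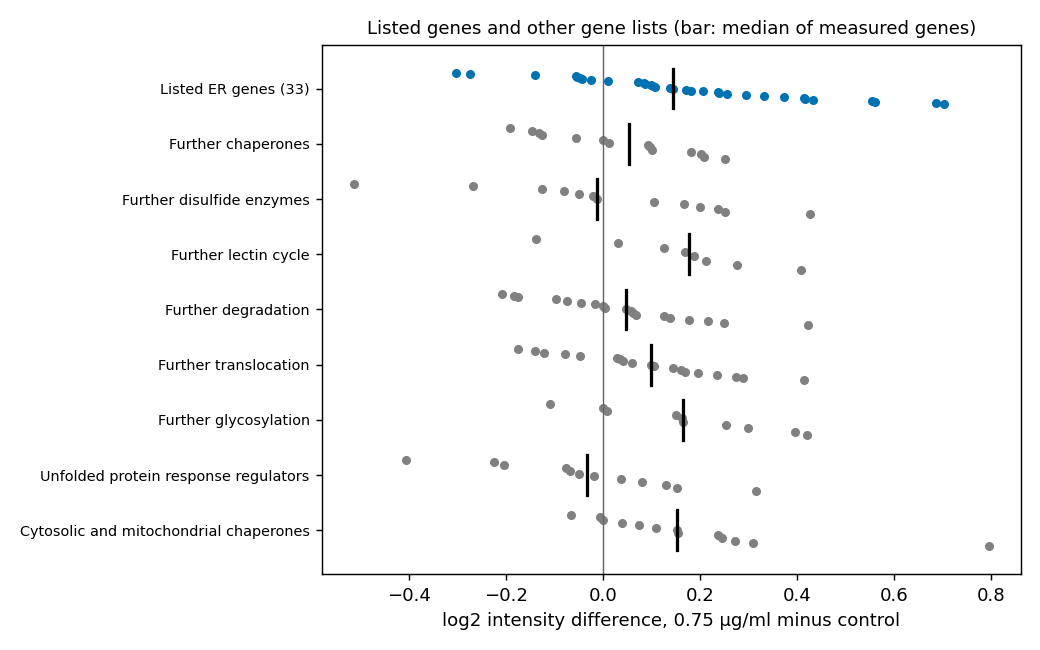
Log2 intensity difference at 0.75 µg/ml minus control (x axis) of each measured gene, for the 33 ER genes and for 8 other lists (y axis), with the median as a bar. The medians run from -0.03 for the regulators to 0.18 for the further lectin cycle genes, with 0.15 for the 33 genes. Genes under the negative controls' level are included.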

How the data were processed

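Each deposited value is a probe set intensity, linear by its range. How the authors normalized the arrays is not stated in the labels. Of 28846 probe sets, 19572 carried 1 symbol in GEO's platform annotation, 2634 transcript probe sets are unnamed here, and 5222 negative and 1324 positive controls stayed out of the gene counts. All 19505 gene identifiers matched RefSeq genes of GRCm38.p6. Log2 was taken after a floor of 1, with no further normalization, and the brightest probe set by mean was kept per gene. The level filter was the median over all probe sets, 5.02 on the log2 scale. Each comparison is a log2 difference between 2 arrays, without a test. Precision is limited by the 3 arrays. All 33 measured genes are named. Of each further list the text names up to 2 of the highest and 2 of the lowest genes above the negative controls on every array, with Xbp1, Atf6, Atf4 and Ddit3 regardless. Uggt2, Txndc11, Hspa1b and the marker Sdc1 are named as too dim for a direction to be read. The genes, lists and motifs were chosen with earlier results of these data known. Software was pandas 2.3.3, numpy 2.4.6, scipy 1.17.1 and matplotlib 3.10.9 under Python 3.11.15, and the steps were tested on simulated data. The alternatives were a floor at the negative controls' level, quantile normalization, centring, the mean of probe sets, 2 other level filters and 2 other fold thresholds.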

Additional observations from a re-analysis of the deposited data

How the results depend on the processing

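The median difference stayed above 0 and above that of all genes in all 3 comparisons, as did the share of genes higher, when dim values were raised to the negative controls' level, with quantile normalization, with centring on the median of all genes past the filter, with the mean of probe sets, without a level filter and with a stricter filter. Over those settings the median at 0.75 µg/ml against the control lay between 0.12 and 0.16 and the count at least 25% higher was 8 or 9. The share of all genes beside that count was 10.8% as reported. It moved from 5.94% with dim values raised to 12.8% without a level filter, and the list lay above it each time. At 0.5 µg/ml the count at least 25% higher was 2 of 33 throughout (2 of 32 with the stricter filter). The share of all genes was 5.91% as reported and 9.1% without a level filter, so the list lay close to the first and under the second. That share was 3.004% with the stricter filter and 1.93% with dim values raised, and the list lay above both. Where the list stood beside all genes at 0.5 µg/ml therefore depended on how dim genes were handled. The fold threshold changed the counts by construction. At 1.5-fold the counts were 2 at 0.75 µg/ml and 0 at 0.5 µg/ml against the control, and 0 between the doses. At 2-fold all 3 counts were 0. The promoter split was added after seeing the data, and the median of its 11 genes at 0.75 µg/ml lay between 0.33 and 0.34, or at 0.35 over the 10 left by the stricter filter. No paired analysis was possible because each group has 1 array, and no array could be left out. Signal limits Derl3, which was under the negative controls on every array, and Dnajb9 on the control array.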
